A study of Mus musculus with 18 samples.

Results

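Nuclei from the hippocampus (Hip) of germ-free (GF) mice were compared with nuclei from the Hip of colonized germ-free (CGF) mice, using the 3 GF and 3 CGF libraries among the 18 libraries of the series. The 6 libraries held 49568 barcodes, of 139924 in the series, and 48854 nuclei with at least 200 genes and at most 10% mitochondrial UMIs were kept, 25522 of GF and 23332 of CGF mice. The study sequenced single nuclei of the Hip and prefrontal cortex of GF, CGF and specific pathogen-free (SPF) mice, all male Kun Ming mice harvested at 8 weeks. GF mice were raised without microbes in film isolators. CGF mice were GF mice that shared an isolator with SPF mice from juvenile age until harvest. Both groups thus began life germ-free in isolators and differed in later exposure to the microbes of SPF mice. They differed in company as well, and the study lists as a caveat that an unfamiliar SPF mouse may have caused some transient stress. Microbial exposure and company cannot be told apart in this comparison. SPF mice were raised separately. Their libraries are given for reference and also enter the estimate of the spread between mice in the gene tests. Each library was 1 mouse, named below by group and mouse number, numbered as in the labels. The sources used here do not say which mice were litter mates or whether the libraries were prepared on the same day, so a batch of preparation, if there was one, and the group cannot be told apart. A summary by the study appears to exchange GF 6 and GF 7, which leaves the groups as they are. The comparison addresses whether colonization by shared housing changes the Hip transcriptome of an animal that began life germ-free.

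Gut microbes are known to signal to the brain through their metabolites, through immune and vagal routes, and through the hypothalamic-pituitary-adrenal axis, whose hormones act on nuclear glucocorticoid receptors. In the Hip, excitatory granule and pyramidal neurons carry the vesicular glutamate transporter Slc17a7, and inhibitory neurons make GABA with Gad1 and Gad2. Astrocytes, oligodendrocytes, their precursors (OPC) and microglia complete the tissue. A nucleus holds much unspliced RNA, while mature messenger RNA is exported to the cytoplasm and mitochondrial transcripts are made outside the nucleus.

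The depth of GF and CGF libraries overlapped over all nuclei. CGF 17, CGF 18 and CGF 19 held 57111594, 62291708 and 54476527 UMIs with medians of 7579, 6111 and 5460 per nucleus, and GF 5, GF 6 and GF 7 held 55733635, 48289446 and 52950158 with medians of 5905, 4678 and 5083. The mitochondrial share of UMIs did not overlap, at 0.0686% to 0.201% in the kept nuclei of CGF and 0.451% to 0.879% in those of GF mice, and at 0.077% to 0.218% and 0.645% to 1.10% over all barcodes. Any pair of the 9 Hip libraries shared 9 to 29 barcodes, at most 0.352% of the smaller library. Nuclei were assigned to classes by their UMIs: excitatory neurons held at least 2 of Slc17a7 and at most 1 of Gad1 and Gad2 together, inhibitory neurons the reverse, and glia at least 3 UMIs from at least 2 of their own marker genes. In astrocytes the median UMIs per nucleus were apart, at 2877 to 3323.5 in CGF and 2521 to 2708 in GF. In OPC they were apart too, at 3242 to 4510 and 2783 to 2932.5, and in the other classes they overlapped. Among the sets of 5 or 6 markers that the gates do not use, those of inhibitory neurons, astrocytes, oligodendrocytes and microglia were highest in their own class in every library, and so were the OPC markers, although astrocytes carried 1662 to 2101 unscaled CPM (UMIs per 1000000 of the class in that library) from the OPC set against 2146 to 2687 in OPC. The excitatory set did not set its class apart, with 1250 to 2067 unscaled CPM in excitatory neurons and 905 to 2081 in microglia. Markers of hippocampal subregions and of the thalamus were present, and over all nuclei each set was apart between the groups. The dentate gyrus set was at 561 to 656 unscaled CPM in GF and 709 to 1004 in CGF, the CA3 set at 341 to 371 and 449 to 486, the CA1 set at 168 to 178 and 137 to 153, and the thalamus set at 684 to 823 and 939 to 1049. In excitatory neurons the CA3 set (426 to 438 against 577 to 608), the CA1 set (180 to 204 against 154 to 164) and the thalamus set (540 to 671 against 730 to 838) were apart in the same directions, while the dentate gyrus set overlapped. Excitatory nuclei with at least 2 UMIs of Prox1, a marker of dentate granule neurons, and those with none were also fitted separately. Of 53 values of named genes past the threshold, 50 and 53 kept their direction and passed in these fits. Both sets are parts of the excitatory nuclei in which these values were chosen, so the fits are no independent check. The part of the subregions in the results below was not tested. The 4 haemoglobin genes, markers of blood, summed to 36.4 to 86.4 unscaled CPM in excitatory neurons of GF and 12.2 to 26.7 in those of CGF mice. They were apart in the same direction in astrocytes (126 to 223 against 36.3 to 70.0), oligodendrocytes (111 to 263 against 37.8 to 84.1), OPC (89.3 to 192 against 27.7 to 59.0) and microglia (138 to 359 against 57.3 to 109), and their part in the results below was not tested.

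Astrocytes and OPC had lower shares of the kept nuclei in every GF than in every CGF library, although for astrocytes this depended on the limits set on nuclei. Astrocytes were 6.63%, 6.35% and 4.57% of nuclei in CGF 17, CGF 18 and CGF 19, and 3.05%, 2.72% and 4.33% in GF 5, GF 6 and GF 7. The groups did not overlap, but the nearest libraries, CGF 19 and GF 7, had 95% Wilson intervals of 4.13% to 5.05% and 3.92% to 4.78%. OPC were 2.60%, 2.67% and 2.61% in CGF and 2.09%, 1.83% and 2.00% in GF, again apart, with SPF libraries at 1.85% to 3.36% on both sides. Excitatory neurons averaged 34.1% ± 4.41 (SD, n = 3) in GF and 27.4% ± 2.54 in CGF, inhibitory neurons 7.33% ± 0.657 and 9.35% ± 1.66, oligodendrocytes 6.75% ± 1.29 and 8.61% ± 1.75, and microglia 2.22% ± 0.102 and 2.33% ± 0.222. The difference in inhibitory neurons, −2.01 percentage points, was −1.12 without CGF 19 and −0.89 with a stricter gate that asks for at least 4 UMIs of the neuronal genes or 5 of the glial genes, and that in oligodendrocytes, −1.86, was −2.86 without CGF 19 and −1.23 without GF 7. By a two-sided exact permutation test over 20 arrangements, p was 0.1 for astrocytes and for OPC, the smallest that 3 against 3 libraries allow, 0.2 for both neuronal classes, 0.3 for oligodendrocytes and 0.6 for microglia. Adjusted over the 6 classes, p was 0.3 for astrocytes, for OPC and for both neuronal classes, so no share passed 0.05. Among nuclei with at least 1000 genes the astrocyte shares overlapped, at 3.54% ± 1.02 in GF and 5.98% ± 1.14 in CGF (exact permutation p = 0.2), and those of excitatory neurons did not, at 36.4% ± 3.93 and 28.0% ± 2.36 (exact permutation p = 0.1). With the stricter gate the shares of excitatory neurons, inhibitory neurons and microglia were apart too, by 4.74, −0.89 and −0.24 percentage points (exact permutation p = 0.1 for each, adjusted p = 0.12). The gates count UMIs, so each nucleus was also thinned to 2000 UMIs, which left out 491 to 1057 shallower nuclei per CGF and 781 to 1578 per GF library. Excitatory neurons were then 8.49% ± 0.496 in GF and 4.59% ± 1.34 in CGF, and oligodendrocytes 3.98% ± 0.439 and 5.80% ± 1.04, neither of which overlapped (p = 0.1 each by the exact permutation test), as for astrocytes and OPC. Inhibitory neurons were 3.71% ± 0.374 and 3.74% ± 0.978. Between 2455 and 4000 nuclei per GF or CGF library fell in no class. The gates read the expression of their own genes: Slc17a7 was higher in GF over all nuclei (150, 156 and 186 CPM in CGF and 229, 214 and 238 CPM in GF, log2 fold change 0.47 ± 0.09 SE, adjusted p = 0.0029 by edgeR), and Gad2 was lower (46.4, 49.7 and 63.9 CPM against 40.1, 43.1 and 43.7 CPM, −0.33 ± 0.12, adjusted p = 0.043). In the fit that corrects for genomic span, described below, their values were 0.09 (adjusted p = 0.36) and −0.04 (adjusted p = 0.81), and without CGF 18, CGF 19, GF 5, GF 6 or GF 7 the adjusted p of Gad2 was 0.052 to 0.12, with −0.19 as its value without CGF 19.

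**Figure D1:**
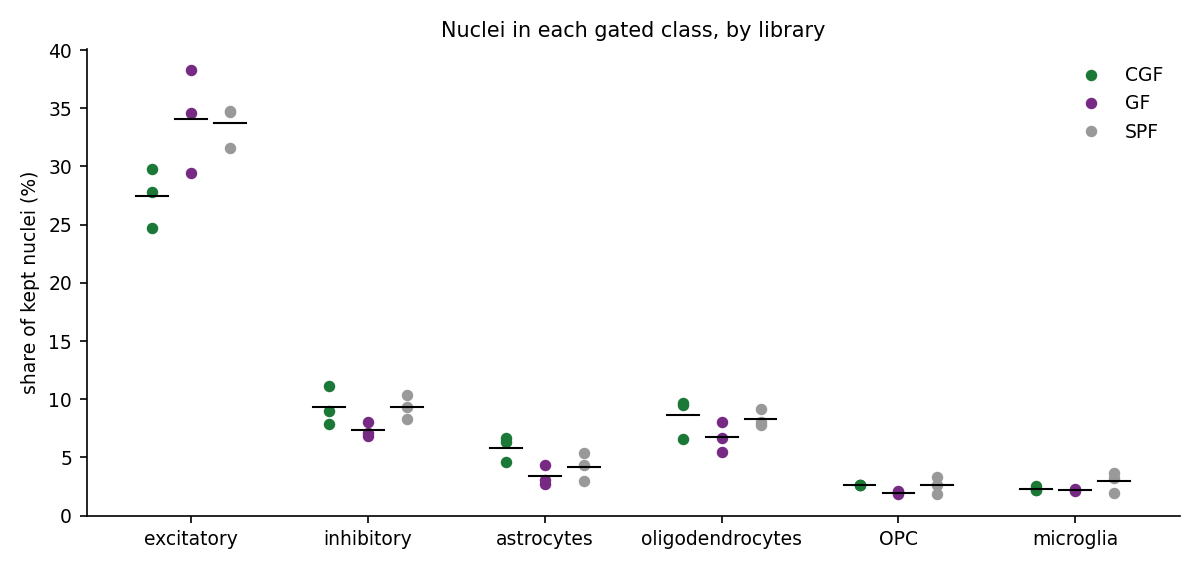
Share of kept nuclei (%) in each gated class for every Hip library, with CGF in green, GF in purple, SPF in grey and group means as black lines. GF and CGF points do not overlap for astrocytes and OPC, and they overlap for the other 4 classes.

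Gene expression differed between GF and CGF mice in every class. UMIs were summed per library and class and tested with edgeR's quasi-likelihood test with Benjamini-Hochberg adjustment over all genes tested, and a gene was counted where its adjusted p was under 0.05. Values are given in CPM, UMIs per 1000000 of the class in that library after TMM scaling, and as log2 fold changes of GF over CGF with their standard error (SE). Over all nuclei, 4763 of 19833 genes were higher in GF (24%) and 4200 were lower (21.2%). In excitatory neurons the counts were 4265 and 3698 of 17774 (24% and 20.8%), in inhibitory neurons 2831 and 2569 of 14735 (19.2% and 17.4%), in astrocytes 1948 and 1408 of 10859 (17.9% and 13%), in oligodendrocytes 2470 and 1876 of 11860 (20.8% and 15.8%), in OPC 1353 and 1114 of 9788 (13.8% and 11.4%) and in microglia 946 and 688 of 8421 (11.2% and 8.17%). Over all nuclei a change in the mix of cell types and a change of RNA per nucleus cannot be told apart. These percentages are the background against which each gene list below is read. The classes come from the same 6 libraries, so their counts are not independent of each other.

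The genes that were higher and those that were lower in GF differed in genomic span, the distance from a gene's annotated start to its end. In excitatory neurons the higher genes had a median span of 10.1 kb, the lower genes 77.6 kb, and the genes that did not pass 24.5 kb. Of 2097 genes under 5 kb, 1105 were higher (52.7%) and 62 lower (2.96%), and of 1060 genes over 200 kb, 20 were higher (1.89%) and 711 lower (67.1%). The split had the same form in inhibitory neurons (9.39 kb for higher and 95.5 kb for lower genes), astrocytes (9.86 and 125 kb), oligodendrocytes (10.4 and 109 kb), OPC (9.29 and 163 kb) and microglia (8.34 and 174 kb). Genes that were higher also had shorter transcripts, with medians of 2205 against 4510 bases in excitatory neurons, and a higher GC content, 51.7% against 46.3%.

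**Figure D2:**
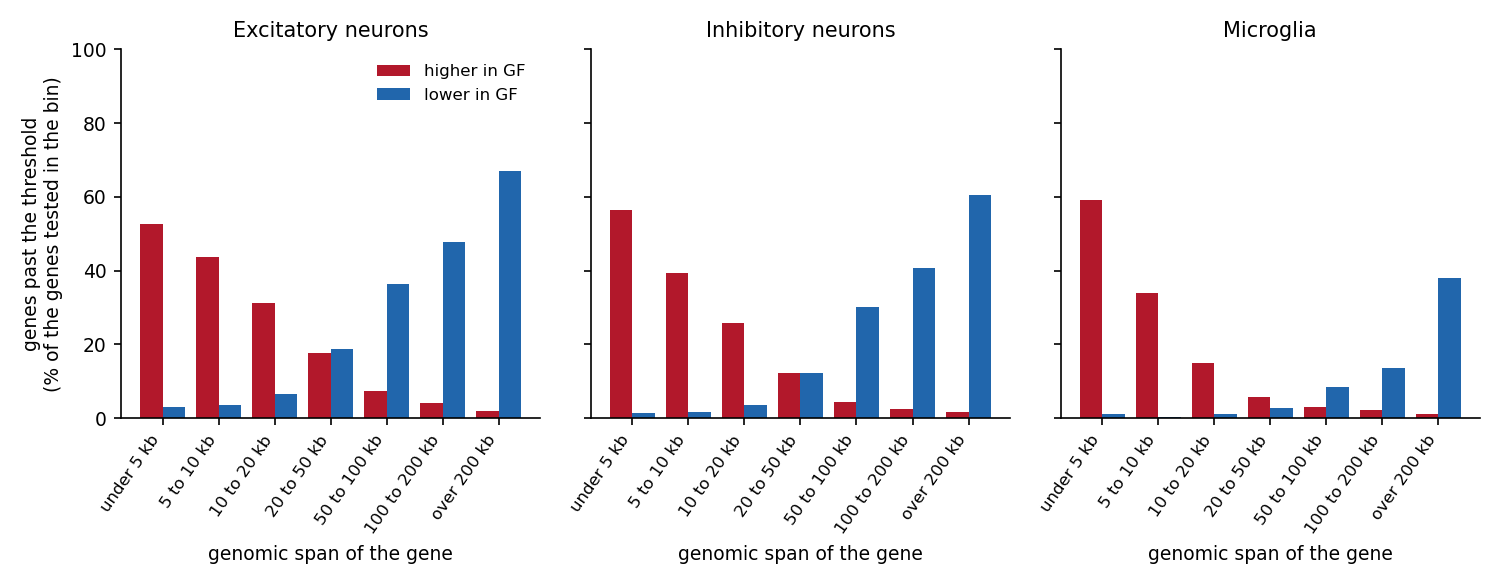
Percent of the genes tested in each bin of genomic span that were higher (red) or lower (blue) in GF than in CGF, in excitatory neurons, inhibitory neurons and microglia. In excitatory neurons 52.7% of genes under 5 kb were higher and 67.1% of genes over 200 kb were lower, and the same order holds in the other panels.

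The same pattern was visible in the libraries without any test. Genes under 10 kb other than Malat1 held 3.23% ± 0.450 (SD, n = 3) of the UMIs of excitatory neurons in CGF and 6.35% ± 0.533 in GF. Genes over 200 kb held 51.3%, 51.0% and 48.9% in CGF 17, CGF 18 and CGF 19 against 40.3%, 38.2% and 40.1% in GF 5, GF 6 and GF 7. The SPF libraries, with 46.7% to 49.3% of these UMIs in genes over 200 kb, overlapped CGF and lay above every GF library. In microglia the genes over 200 kb held 31.2% ± 2.11 of UMIs in CGF and 21.2% ± 2.99 in GF. Malat1, a long noncoding RNA that stays in the nucleus, was at 29836, 32382 and 33487 CPM in excitatory neurons of CGF and 72408, 70235 and 63309 CPM in those of GF mice. Its groups did not overlap and its log2 fold change was 1.11 ± 0.09 (adjusted p = 4.5e-05). In every class the GF libraries stood apart from the CGF libraries by both shares, so the make-up of a library by span and its group cannot be told apart. The part of either in single genes was not tested beyond the fit described next.

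**Figure D3:**
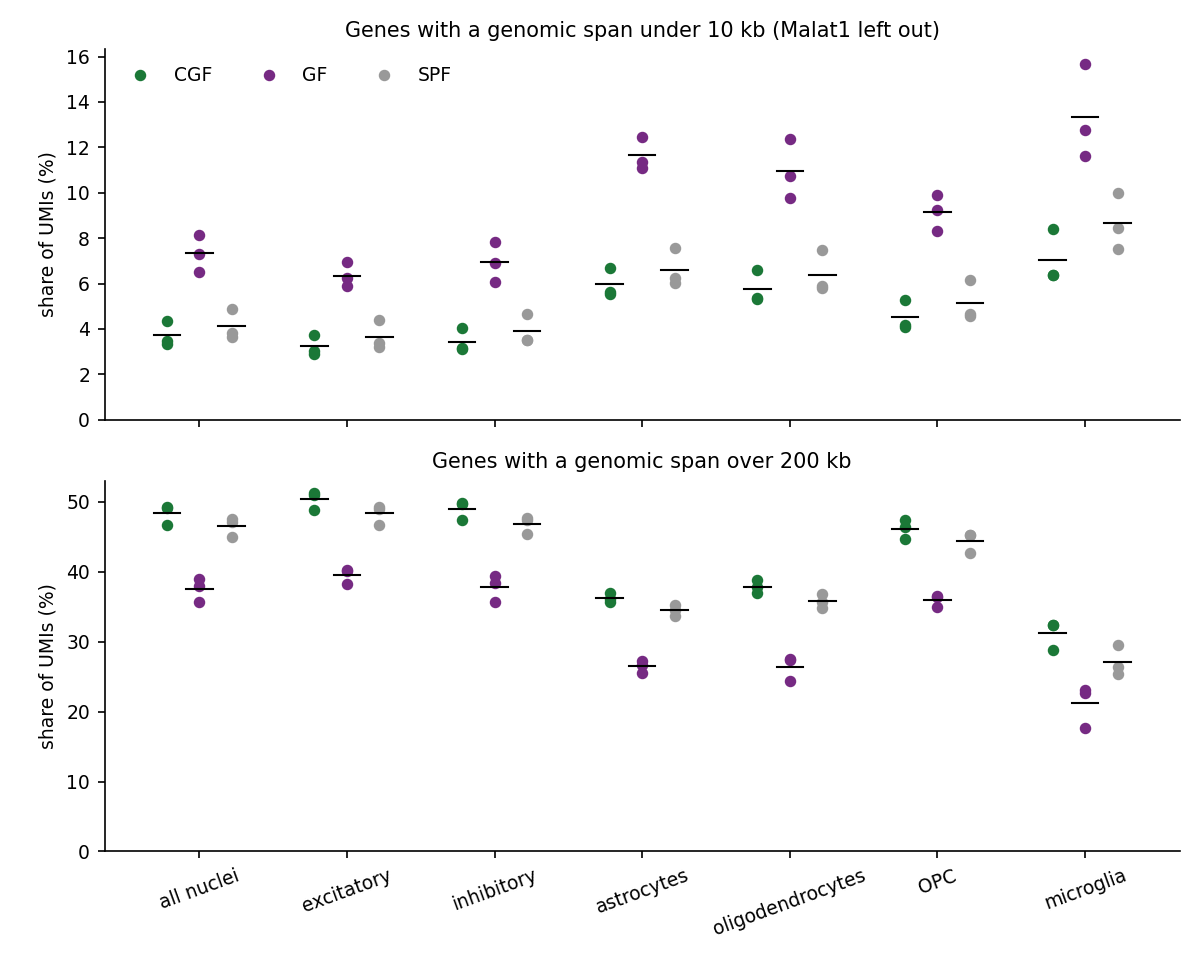
Percent of UMIs from genes with a genomic span under 10 kb, Malat1 left out (top), and over 200 kb (bottom), for every Hip library in all nuclei and in each class, with group means as black lines. In each class the 3 GF points lie above all CGF points in the upper panel and below them in the lower panel.

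The gene tests over all nuclei and within each class were therefore also run in a further fit. From it a smooth trend on genomic span, transcript length and GC content had been removed in each library. It was chosen after seeing the data and is called the span-corrected fit below. The shares of nuclei and the tests between classes were not run with it. In the span-corrected fit 2846 genes were higher over all nuclei (14.4% of 19797) and 3989 were lower (20.1%). Of the genes called, 41.6% were higher, against 53.1% without the correction. The counts in excitatory neurons were 2365 and 2981 (13.3% and 16.8%), in inhibitory neurons 1293 and 1073 (8.79% and 7.29%), in astrocytes 982 and 544 (9.05% and 5.02%), in oligodendrocytes 1436 and 901 (12.1% and 7.6%), in OPC 443 and 255 (4.53% and 2.61%) and in microglia 269 and 165 (3.2% and 1.96%). A fit of this kind also takes away any true change that short or long genes share. Of 137 values of named genes that passed, 61 were at least 1.5 times nearer to 0 after correction or changed sign, and 2 were at least 1.5 times farther from 0. Most gene lists below are given with both counts.

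Genes named only by a Gm number, a Rik clone or an accession were left out of the rankings below, and so were genes under 20 CPM and those whose groups overlapped. Over all nuclei the largest falls by this rule were in Slc7a11, the cystine-glutamate exchanger, Upp2, a uridine phosphorylase, Cryl1, Cmss1, Bmpr1b, a receptor for bone morphogenetic proteins, and Mid1, a ubiquitin ligase of microtubules. Slc7a11 was at 41.6, 31.9 and 43.8 CPM in CGF and 6.83, 15.0 and 17.4 CPM in GF (−1.58 ± 0.32, adjusted p = 0.003). Upp2 was at 308, 294 and 269 CPM in CGF and 119, 83.9 and 89.9 CPM in GF (−1.57 ± 0.17, adjusted p = 0.00014). It also fell in excitatory and inhibitory neurons, oligodendrocytes and OPC, with log2 fold changes of −1.57, −1.68, −1.96 and −2.01. Mid1 was at 240, 471 and 422 CPM in CGF, 166, 113 and 167 CPM in GF and 40.2, 45.4 and 65.2 CPM in SPF, so that here GF lay between the colonized groups (−1.34 ± 0.27 against CGF, adjusted p = 0.0032). The largest rises were in 5 genes of the mitochondrial genome and in Baiap2l1, which shapes actin-rich membranes and was at 5.97, 4.92 and 10.7 CPM in CGF and 35.5, 28.1 and 43.0 CPM in GF (2.31 ± 0.37, adjusted p = 0.00094). All of these kept their direction and their call in the span-corrected fit except mt-Atp6, and Cryl1 had an adjusted p of 0.0525, 0.0501 and 0.0531 without CGF 17, GF 6 and GF 7.

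Energy metabolism genes were higher in GF in every class. Of 13 genes of the mitochondrial genome, 12 rose in inhibitory neurons before the correction (median log2 fold change 1.98). In astrocytes 11 of 11 rose (1.74) and in oligodendrocytes 8 of 11 (1.14). In OPC 8 of 11 rose (1.38), in microglia 5 of 11 (1.04), and none fell. Medians of the nuclear genes of oxidative phosphorylation were 1.04, 1.33, 1.33, 1.32 and 1.18 in the same order. In excitatory neurons all 13 protein-coding genes of the mitochondrial genome rose, with a median log2 fold change of 2.52, beside a median of 0.02 over all genes tested. The largest was mt-Co3, a subunit of cytochrome c oxidase, at 98.8, 179 and 346 CPM in CGF and 1241, 2058 and 2116 CPM in GF (3.12 ± 0.57, adjusted p = 0.0017). The libraries did not overlap, and SPF 32, at 884 CPM, lay nearest to GF. Cytochrome b (mt-Cytb) and the complex I subunit mt-Nd1 rose by 2.89 and 2.74, and the 6 largest rises of the class at 20 CPM or more were all genes of the mitochondrial genome. Of 80 nuclear genes of oxidative phosphorylation, 67 rose and 2 fell, with a median of 1.08. Ndufa10 of complex I went from 46.4, 44.5 and 47.9 CPM in CGF to 75.9, 83.7 and 72.1 CPM in GF (0.74 ± 0.07, adjusted p = 8.0e-05), and the others named by the smallest p were Uqcrc1, Cox6a1 and Ndufc1, at 0.64, 1.37 and 1.38, and at 0.26, 0.30 and 0.52 after correction. In the span-corrected fit 9 mitochondrial genes and 35 nuclear genes were higher and 6 of the nuclear genes were lower, and the medians were 1.13 and 0.32. The mitochondrial genes scale with the mitochondrial share of UMIs given above, and with nuclei limited to 1% mitochondrial UMIs the values of mt-Co3, mt-Cytb and mt-Nd1 in this class were 2.32, 1.95 and 1.78, all past the threshold.

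Most ribosomal protein and proteasome genes rose in excitatory neurons as well, and the medians of these lists were above 0 in the other classes too. Before the correction the cytosolic ribosomal proteins had medians of 1.10 in inhibitory neurons, 1.40 in astrocytes and 1.34 in oligodendrocytes. In OPC the median was 1.46 and in microglia 1.37. The proteasome medians in the same order were 0.48, 0.57, 0.87, 0.59 and 0.80. Of 82 cytosolic ribosomal proteins in excitatory neurons, 66 rose and 1 fell (median 1.07). Of 76 mitochondrial ribosomal proteins, 57 rose and 2 fell (median 0.98). Mrps18a of the mitochondrial small subunit was at 21.0, 21.2 and 24.0 CPM in CGF and 45.7, 48.4 and 45.7 CPM in GF (1.08 ± 0.08, adjusted p = 3.0e-05). In the span-corrected fit the cytosolic list had 20 higher and 7 lower (median 0.16), and the mitochondrial list had 31 higher and 3 lower (median 0.26). Of 38 proteasome subunits, 25 rose and 3 fell, and 13 and 3 did so after correction. Psmd7, a lid subunit, went from 45.3, 42.6 and 47.3 CPM to 94.8, 91.5 and 93.3 CPM (1.05 ± 0.06, adjusted p = 2.7e-05). Of 13 genes for ubiquitin, LC3 and GABARAP proteins, 9 rose and 2 fell, and 5 and 2 did so after correction. Gabarapl2, which builds autophagosome membranes, was at 28.8, 15.3 and 31.4 CPM in CGF and 81.6, 73.4 and 66.1 CPM in GF (1.55 ± 0.25, adjusted p = 0.00093), and Gabarap, which also traffics GABA-A receptors, rose by 1.40 ± 0.27 (adjusted p = 0.0024) and did not pass after correction (adjusted p = 0.078). Across the other 5 classes Gabarapl2 rose by 1.46 to 1.97 and passed in the span-corrected fit in all of them.

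Chaperones were higher in GF. Of 20 heat shock genes 14 rose and none fell in excitatory neurons (median 0.70), and 9 rose and none fell in the span-corrected fit (median 0.43). Hspa4, a nucleotide exchange factor of the HSP70 cycle with a span of 40.6 kb, was at 75.2, 73.0 and 81.0 CPM in CGF and 140, 137 and 140 CPM in GF. The groups lay far apart and each was tight (0.86 ± 0.06, adjusted p = 2.8e-05, and 0.98 after correction). Hspa5, the chaperone of the endoplasmic reticulum, went from 22.4, 25.4 and 39.7 CPM to 107, 86.2 and 115 CPM (1.82 ± 0.22, adjusted p = 0.00019). Iron and antioxidant genes had 14 of 21 higher and 2 lower, and 11 and 4 after correction. Gpx4, which reduces lipid peroxides, rose by 1.72 ± 0.27 (adjusted p = 0.0007) and the ferritin light chain Ftl1 by 2.01 ± 0.27 (adjusted p = 0.00034). Of 17 genes of cholesterol synthesis and uptake, 11 rose and 1 fell, and 7 and 1 did so after correction.

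**Figure D4:**
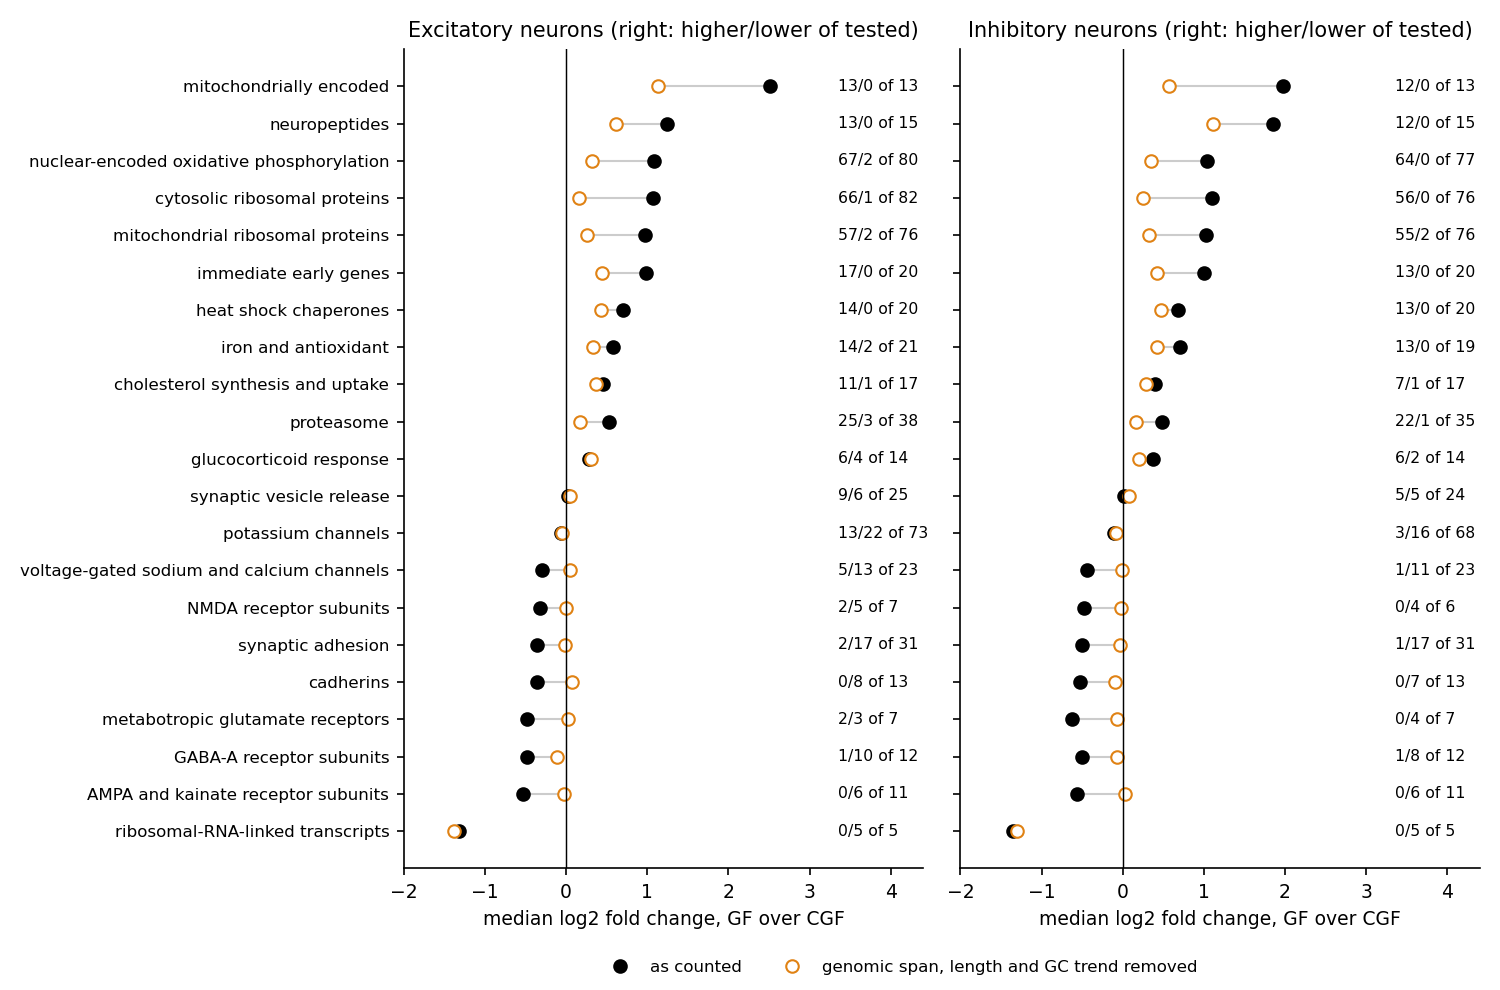
Median log2 fold change of GF over CGF for 21 gene lists in excitatory and inhibitory neurons, as counted (black) and with the trend on genomic span, length and GC content removed (orange), with the number higher and lower of those tested at the right. The medians of the receptor, cadherin and adhesion lists move to near 0 after correction, while those of mitochondrial, neuropeptide, immediate early and heat shock genes stay above 0.

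Neuropeptide and secretory granule genes rose in both neuronal classes and also in the glial classes. Before the correction 7 of 8 rose in astrocytes, 8 of 10 in oligodendrocytes, 7 of 8 in OPC and 3 of 7 in microglia. None fell in these 4 classes, and the medians were 0.997, 0.965, 1.15 and 1.13. In excitatory neurons 13 of 15 rose and none fell (median 1.25), and in inhibitory neurons 12 of 15 rose and none fell (median 1.86). After correction the counts were 6 higher and 1 lower in excitatory neurons (median 0.61) and 9 and 0 in inhibitory neurons (median 1.11). The lower gene was Sst, which turned to −0.81 in excitatory neurons, where its level was 16.2, 19.4 and 23.7 CPM in CGF and 24.1, 36.0 and 30.8 CPM in GF, and where it did not pass without CGF 17, CGF 18, GF 6 or GF 7 (adjusted p of 0.068 to 0.11). Scg2, the granule protein secretogranin II, was at 16.5, 20.6 and 29.1 CPM in excitatory neurons of CGF and 91.8, 95.2 and 97.3 CPM in those of GF mice, with SPF at 19.3 to 28.0 CPM (2.11 ± 0.19, adjusted p = 7.3e-05). Chgb, chromogranin B, went from 68.7, 96.5 and 110 CPM to 255, 292 and 311 CPM (1.64 ± 0.19, adjusted p = 0.00016). Pcsk1n, the inhibitor of a prohormone convertase, rose by 1.94 and Chga by 1.25. In inhibitory neurons Npy, the neuropeptide Y precursor, was at 9.39, 9.45 and 10.4 CPM in CGF and 38.8, 52.9 and 42.9 CPM in GF (2.20 ± 0.16, adjusted p = 7.5e-05). The groups did not overlap, and the value after correction was 1.48.

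The promoters of the neuropeptide genes, most of which rose before the correction, were searched for the cAMP response element in its full palindromic form, TGACGTCA, which reads the same on both strands and binds CREB-family factors. Of the 16 genes, 14 had a promoter in the RefSeq table (GRCm38.p6), and 3 of these 14 held the element in the 250 bases before the start, against 508 of 32817 promoters overall (1.55%). The 60-base windows of those 3 are given 5′ to 3′ on the gene's strand, with the element in capitals. They lie at chr1:79440061-79440120 on the minus strand (Scg2, element 68 to 61 bases before the start), chr2:132781544-132781603 on the plus strand (Chgb, 72 to 65 bases before) and chr16:23890859-23890918 on the minus strand (Sst, 48 to 41 bases before). A match is a description of these letters and not evidence of binding in these nuclei. Whether the list holds the element more often than other short or expressed genes was not tested. Of the 3, Sst was lower in excitatory neurons after correction and did not pass in inhibitory neurons after correction.
Scg2: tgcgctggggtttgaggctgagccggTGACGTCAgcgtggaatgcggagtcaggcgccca
Chgb: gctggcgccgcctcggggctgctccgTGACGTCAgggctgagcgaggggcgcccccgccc
Sst: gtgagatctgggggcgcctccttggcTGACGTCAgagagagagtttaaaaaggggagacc

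Immediate early genes, which neurons transcribe within minutes of stimulation, were also higher, in neurons and in glia. Before the correction 13 of 18 rose and 2 fell in astrocytes (median 1.03). In oligodendrocytes 11 of 19 rose (median 1.03), in OPC 6 of 15 (0.54) and in microglia 6 of 13 (0.96), and none fell. In excitatory neurons 17 of 20 rose and none fell (median 0.99), and 9 rose and none fell after correction (median 0.44). Fos was at 3.65, 3.36 and 2.51 CPM in CGF and 17.6, 11.2 and 12.8 CPM in GF, without overlap (2.12 ± 0.25, adjusted p = 0.00017). Junb, its dimer partner, went from 18.6, 16.4 and 11.8 CPM to 73.8, 49.8 and 49.0 CPM (1.88 ± 0.22, adjusted p = 0.00019). Egr4 rose by 1.83 and Btg2 by 1.49, and all 4 passed in the span-corrected fit. In inhibitory neurons 13 of 20 rose and none fell, and 5 and 0 after correction, where Npas4, a factor specific to neuronal activity, was at 3.68, 4.55 and 4.19 CPM in CGF and 14.2, 10.3 and 11.7 CPM in GF (1.54 ± 0.21, adjusted p = 0.00044). Time from death to freezing is not given in the sources used here.

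Receptor and adhesion genes were lower in GF in neurons and in glia. In excitatory neurons most of these calls ended in the span-corrected fit. Before the correction 8 of 12 GABA-A receptor subunits fell in astrocytes (median −0.50). In OPC 8 of 11 fell (−0.69) and in microglia 7 of 10 (−0.91), and none rose in these classes. In oligodendrocytes 9 of 12 fell and 1 rose (−0.86). Of synaptic adhesion genes, 19 of 31 fell and 1 rose in astrocytes (−0.49). In oligodendrocytes 23 of 31 fell and 2 rose (−0.73). In OPC these were 15 of 31 and 2 (−0.47), and in microglia 15 of 30 and 0 (−0.93). In excitatory neurons 10 of 12 GABA-A receptor subunits fell and 1 rose (median −0.48), and 3 and 0 did so after correction (median −0.12). Gabrb1, a subunit with a span of 491 kb, was at 1801, 1750 and 1788 CPM in CGF and 1194, 1175 and 1106 CPM in GF, with SPF at 1503 to 1645 CPM. It fell by 0.62 ± 0.07 (adjusted p = 0.00013) and its value after correction was −0.08 (adjusted p = 0.41). Gabra2 fell by 0.76 ± 0.10 (adjusted p = 0.00029) and still passed after correction, at −0.34 (adjusted p = 0.018). Among AMPA, kainate and delta glutamate receptor subunits 6 of 11 fell and none rose (median −0.54), and 1 fell after correction. That one was Gria1, which went from 3352, 3109 and 3503 CPM to 2128, 1908 and 2006 CPM (−0.72 ± 0.08, adjusted p = 0.00017, and −0.28 with adjusted p = 0.039 after correction). Of 31 synaptic adhesion genes 17 fell and 2 rose, and after correction 2 fell and 5 rose. Of 13 cadherins 8 fell and none rose, and 2 and 0 did so after correction. These 2 were Cdh11, at 587, 582 and 501 CPM in CGF and 328, 281 and 306 CPM in GF (−0.87 ± 0.10, adjusted p = 0.00017), and Cdh7, at 42.6, 43.4 and 32.6 CPM and 21.5, 11.7 and 17.4 CPM (−1.22 ± 0.19, adjusted p = 0.00073). Cdh8, Cdh9 and Cdh12 fell by 0.61, 0.36 and 0.40 (Cdh9 with an adjusted p of 0.094 to 0.10 without CGF 17, CGF 19, GF 6 or GF 7, and Cdh12 with 0.061 and 0.062 without CGF 18 and GF 6), and their values after correction were −0.10, 0.02 and 0.19, none of which passed. Cdh9 was at −0.058 in nuclei with at least 2 Prox1 UMIs (adjusted p = 0.67 by edgeR). In those with no Prox1 UMI it was at −0.60 (adjusted p = 0.0013).

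NMDA receptor subunits and potassium channel genes moved in both directions. Among the 7 NMDA receptor subunits 5 fell and 2 rose, and after correction 3 fell and 1 rose. Grin3a, a subunit that lowers calcium permeability, was at 82.5, 80.5 and 63.1 CPM in CGF and 38.3, 40.7 and 40.9 CPM in GF (−0.92 ± 0.11, adjusted p = 0.00023), and Grin2d rose by 0.54 ± 0.13 (adjusted p = 0.0068). Both passed after correction, and Grin2d did not pass in nuclei with at least 2 UMIs of Prox1, a marker of dentate granule neurons (0.54, adjusted p = 0.069). Of 73 potassium channel genes 13 rose and 22 fell, against backgrounds of 24% and 20.8%, and after correction 9 rose and 9 fell. Kcnq1 was a long gene that rose: with a span of 321 kb it was at 144, 159 and 153 CPM in excitatory neurons of CGF and 234, 277 and 269 CPM in those of GF mice (0.78 ± 0.10, adjusted p = 0.00027). Its antisense transcript Kcnq1ot1, which overlaps it and whose reads can be told apart only by strand, fell by 0.69 ± 0.07 (adjusted p = 0.00011). Kcnq1 rose in inhibitory neurons as well, by 0.84 ± 0.10 (adjusted p = 0.00031). Transcripts linked to ribosomal RNA sequence (Gm42418, AY036118, Lars2, Cmss1 and 1 more) were lower in 5 of 5 cases with and without the correction. In excitatory neurons Gm42418 was at 698, 513 and 764 CPM in CGF and 172, 208 and 177 CPM in GF (−1.83 ± 0.36, adjusted p = 0.0025), and its reads may be shared with ribosomal RNA copies.

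Lists of cytoskeletal, glycolysis, vacuolar ATPase and calcium-binding genes also held more rises than falls in excitatory neurons. For actin, thymosin and tubulin genes 18 of 23 rose and none fell (median 0.999), for glycolysis 7 of 14 rose and 1 fell (0.58), for vacuolar ATPase subunits 9 of 21 rose and 1 fell (0.32) and for calmodulin and calcium-binding genes 7 of 15 rose and 2 fell (0.40). After correction these had 6 and 1, 6 and 0, 7 and 0, and 5 and 0. Calm2, one of the calmodulin genes, was at 279, 302 and 362 CPM in CGF and 555, 625 and 574 CPM in GF (0.89 ± 0.13, adjusted p = 0.00044). Translation initiation factors (6 of 20 higher, 2 lower), synaptic vesicle release genes (9 and 6 of 25) and clock genes (7 and 4 of 18) moved in both directions, and after correction had 5 and 3, 5 and 0, and 3 and 1. Voltage-gated sodium and calcium channels fell in 13 and rose in 5 of 23 cases, and metabotropic glutamate receptors fell in 3 and rose in 2 of 7, and after correction 2 fell and 2 rose, and 0 fell and 1 rose. Syt1, the calcium sensor of vesicle fusion, was at 4344, 4464 and 3897 CPM in CGF and 2770, 2410 and 2705 CPM in GF (−0.69 ± 0.10, adjusted p = 0.00044, and −0.19 with adjusted p = 0.084 after correction).

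Lists tied to signals from gut microbes were counted in excitatory neurons against the backgrounds of 24% higher and 20.8% lower. For aryl hydrocarbon receptor and serotonin genes 1 of 16 rose and 4 fell, for transporters of short-chain fatty acids and lactate 1 of 6 rose and 1 fell, for histone deacetylases 1 of 11 rose and 5 fell, and for interferon response genes 6 of 19 rose and 4 fell. After correction these had 2 higher and 2 lower, 1 and 0, 1 and 3, and 2 and 3. Hdac9, a class IIa histone deacetylase, was at 595, 583 and 450 CPM in CGF and 370, 368 and 352 CPM in GF (−0.58 ± 0.13, adjusted p = 0.0051, and −0.02 with adjusted p = 0.90 after correction). Slc16a1, a monocarboxylate transporter, was at 19.7, 18.4 and 18.7 CPM in CGF and 22.6, 24.2 and 19.9 CPM in GF, which did not overlap and did not pass (0.23 ± 0.09, adjusted p = 0.060). It passed without GF 7 (0.29, adjusted p = 0.037), with a trend on length and GC content removed (0.39, adjusted p = 0.0066), with the stricter gate and in excitatory nuclei with no UMI of Prox1, but not in the span-corrected fit (0.19, adjusted p = 0.11). Neurotrophins and their receptors had 1 of 9 higher and 2 lower, blood-brain barrier genes 1 of 11 and 2, nuclear long noncoding RNAs 2 of 8 and 2, and genes of dentate neurogenesis 2 of 10 and 0. After correction the counts were 1 and 0, 1 and 0, 1 and 2, and 0 and 3. Dcx, the doublecortin of immature neurons, was at 46.6, 53.0 and 30.7 CPM in CGF and 27.7, 24.0 and 30.3 CPM in GF (−0.67 ± 0.25, adjusted p = 0.051). Its call depended on the setting. It passed by DESeq2 (−0.70, adjusted p = 0.014), without CGF 19 (−0.87, adjusted p = 0.015) and in nuclei with at least 2 Prox1 UMIs (−1.11, adjusted p = 0.013). It also passed with DESeq2's size factors, no filter on low counts, the 6 libraries alone, thinned sums, likely doublets removed or the stricter gate (adjusted p of 0.018 to 0.049). Among the settings in which it did not pass were the limit of 1% mitochondrial UMIs (−0.56, adjusted p = 0.087) and the span-corrected fit (−0.34, adjusted p = 0.29). Of 57 clustered protocadherins 1 could be tested and it did not pass. In microglia none of the 14 clock genes tested passed.

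By the same rule the largest single falls in excitatory neurons were in Lama2, the laminin alpha 2 chain, Upp2, the transcription factor Sox6, Cryl1, Eya1 and the phosphodiesterase Pde11a, and all 6 passed after correction. Sox6 did not pass with the stricter gate (−1.09, adjusted p = 0.090) or in nuclei with at least 2 Prox1 UMIs (−0.77, adjusted p = 0.15), and Lama2 was at −0.87 with that gate (adjusted p = 0.018). Pde11a was at 103, 93.1 and 91.8 CPM in CGF, 34.0, 39.6 and 36.0 CPM in GF and 65.6 to 77.2 CPM in SPF (−1.40 ± 0.09, adjusted p = 2.7e-05). Lama2 was at 27.6, 35.5 and 45.1 CPM in CGF and 9.94, 11.5 and 12.8 CPM in GF (−1.66 ± 0.19, adjusted p = 0.00017). Markers of other cell types moved within the gated excitatory nuclei too. The 5 summed astrocyte markers were at 585 to 698 unscaled CPM in GF and 854 to 1073 in CGF, the 5 inhibitory markers at 87.0 to 133 and 166 to 249, and the 5 OPC markers at 133 to 167 and 192 to 226, all without overlap and with none of the markers at 0. Their part in the results for this class was not tested.

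In inhibitory neurons a gene of their own transmitter system had one of the larger rises. Slc32a1, which loads GABA into synaptic vesicles, was at 21.2, 19.5 and 24.3 CPM in CGF and 68.4, 105 and 92.6 CPM in GF, with SPF at 23.7 to 25.2 CPM (2.03 ± 0.16, adjusted p = 7.5e-05, and 1.32 after correction). The GF libraries lay well apart from both other groups. By the rule on names and levels above, the 6 largest rises were in 4 mitochondrial genes, Npy and Edf1, a transcriptional coactivator, which was at 10.5, 11.3 and 15.9 CPM in CGF and 43.1, 59.3 and 56.0 CPM in GF. Gad1, which makes GABA and was part of the gate, was at 255, 268 and 250 CPM in CGF and 320, 271 and 307 CPM in GF (0.22 ± 0.11, adjusted p = 0.14, and 0.38 with adjusted p = 0.023 after correction), and Gad2 was at 339, 358 and 320 CPM against 349, 309 and 366 CPM (0.01 ± 0.11, adjusted p = 0.95). Of 12 GABA-A receptor subunits 8 fell and 1 rose, and after correction 1 fell and none rose. That one was Gabra4, at 133, 137 and 119 CPM in CGF and 83.4, 67.5 and 78.3 CPM in GF (−0.76 ± 0.10, adjusted p = 0.0004). The largest falls by the same rule were in Upp2, the transcription factor Glis3, the integrin Itga8, Fam163b, Zfp831 and the heparan sulphate sulphotransferase Hs3st4, which did not pass with the stricter gate (−1.44, adjusted p = 0.054). Glis3 was at 165, 171 and 205 CPM in CGF and 63.6, 56.0 and 50.6 CPM in GF (−1.67 ± 0.16, adjusted p = 0.00012). Sst rose by 1.86 ± 0.24 (adjusted p = 0.00034) and did not pass after correction (0.48, adjusted p = 0.18). Within the gated inhibitory nuclei the 5 summed astrocyte markers were at 375 to 502 unscaled CPM in GF and 609 to 894 in CGF, the 5 excitatory markers at 942 to 1048 and 595 to 916, and the 5 dentate gyrus markers at 307 to 394 and 560 to 815. All 3 sets were apart, none of their markers was at 0, and their part in the results for this class was not tested.

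Whether the difference between GF and CGF was larger in one class than in another was tested directly, with each mouse as a block across its 2 classes. This was a joint fit of the 2 classes with its own scaling. Its differences therefore need not equal those between the log2 fold changes given for each class. Between excitatory and inhibitory neurons 8 of 17009 genes passed (0.047%). Without the block none did, and edgeR then counted 781 genes at an unadjusted p under 0.05. The first 4 were Slc32a1, which was at 3.52, 4.56 and 6.94 CPM in excitatory neurons of CGF and 4.88, 6.42 and 4.34 CPM in those of GF mice (difference of the 2 log2 fold changes −1.99 ± 0.21, adjusted p = 0.026), Nptx1 (1.02 ± 0.12, adjusted p = 0.038), Sst (−1.24 ± 0.15, adjusted p = 0.040) and Metap1d (−1.05 ± 0.14, adjusted p = 0.040). The count depended on single libraries: it was 0 without CGF 18 or without GF 7, where 1375 and 1184 genes had an unadjusted p under 0.05, 2, 3 and 4 without CGF 17, GF 5 and GF 6, and 58 without CGF 19. With no filter on low counts 261 of 25192 genes passed. Nptx1, a secreted pentraxin of excitatory synapses, was at 40.0, 51.4 and 75.9 CPM in excitatory neurons of CGF and 92.6, 89.2 and 98.8 CPM in those of GF mice (0.75 by log2 fold change, but 0.29 with adjusted p = 0.20 after correction and 0.50 with adjusted p = 0.052 at no more than 1% mitochondrial UMIs), while in inhibitory neurons it was at 26.1, 39.8 and 63.0 CPM and 37.2, 31.5 and 33.7 CPM. Metap1d, a mitochondrial methionine aminopeptidase, fell in excitatory neurons by 0.93 ± 0.11 and was at 0.06 ± 0.16 in inhibitory neurons (adjusted p = 0.79). Between excitatory neurons and astrocytes 747 of 16965 genes passed (4.4%), 581 with a more positive difference in excitatory neurons, and 288 passed without the block. With another scaling, DESeq2's size factors, 470 passed, of which 189 were more positive, so the direction of this split depended on the scaling. The count was 481 without CGF 18, 394 without GF 5, 484 without GF 6 and 454 without GF 7. The first 4 were Gpr37l1, Mfge8, Nptx1 and Scg2. Mfge8, a bridge for phagocytosis, was at 105, 86.8 and 88.4 CPM in astrocytes of CGF and 275, 335 and 380 CPM in those of GF mice, and at 8.01, 9.61 and 10.6 CPM and 4.72, 7.57 and 8.75 CPM in excitatory neurons (difference −2.05 ± 0.18, adjusted p = 8.6e-09).

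**Figure D5:**
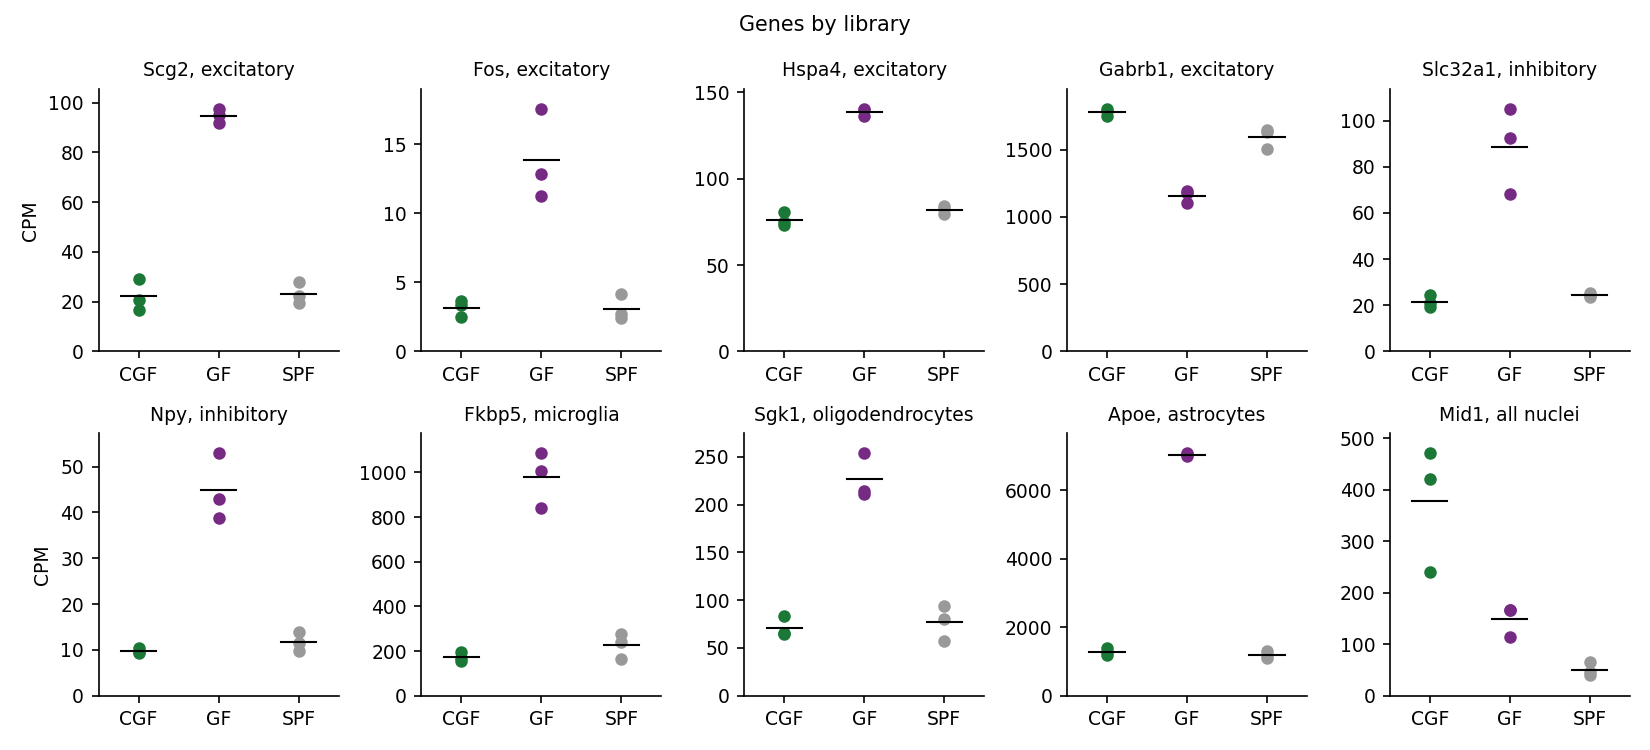
Levels in CPM of 10 genes in every Hip library, in the class named above each panel, with group means as black lines and each axis starting at 0. GF points do not overlap CGF points in any panel, and for Mid1 the SPF points are lowest, at 40.2 to 65.2 CPM.

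In astrocytes Apoe, Cst3 and Clu rose, and Epha6 and Bnc2 fell. Apoe, the lipid carrier of the brain, was at 1192, 1265 and 1406 CPM in CGF, 7057, 7082 and 6998 CPM in GF and 1101 to 1314 CPM in SPF (2.45 ± 0.11, adjusted p = 1.1e-10). Cst3, the protease inhibitor cystatin C, went from 589, 664 and 700 CPM to 4116, 4366 and 3818 CPM (2.65 ± 0.12, adjusted p = 1.1e-10), and Clu, clusterin, from 281, 227 and 246 CPM to 968, 1013 and 1088 CPM (2.03 ± 0.12, adjusted p = 6.3e-09). All 3 passed after correction, at 1.35, 1.53 and 1.45. Of 19 genes of astrocyte transport and homeostasis 13 rose and 1 fell (median 0.71), and 6 and 1 did so after correction (median 0.32). Among cholesterol genes 5 of 17 rose, among them Msmo1, Sqle and Idi1, and 1 fell, and 4 and 0 did so after correction. Idi1 did not pass without GF 6 (0.73, adjusted p = 0.068) or after correction (0.69, adjusted p = 0.096). Mfsd2a, a lysolipid transporter, was at 13.4, 15.2 and 11.2 CPM in CGF and 80.3, 53.2 and 60.3 CPM in GF (2.25 ± 0.23, adjusted p = 3.2e-06). The largest rises were in Tmem176b (3.07), the GTPase Gem (2.80) and Cst3, and the largest falls in Bnc2, Epha6 and the formin Fmn1. Epha6, an ephrin receptor, was at 462, 730 and 1010 CPM in CGF and 196, 84.6 and 104 CPM in GF (−2.52 ± 0.28, adjusted p = 5.7e-06). Bnc2 was at 58.4, 54.2 and 36.9 CPM in CGF but at 1.08 to 11.8 CPM in SPF, so that GF, at 1.43, 0 and 12.4 CPM, lay with SPF. The 5 summed markers of excitatory neurons were at 502 to 898 unscaled CPM in the gated astrocytes of CGF and 1215 to 1303 in those of GF mice. They were apart in the same direction in oligodendrocytes (968 to 1328 against 1582 to 1759), OPC (542 to 817 against 1147 to 1273) and microglia (905 to 1294 against 1818 to 2081), and their part in the glial results was not tested.

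Glucocorticoid-responsive genes held more rises than falls in both neuronal classes, astrocytes, oligodendrocytes and OPC, with falls in each of them before the correction. Whether the list differed between classes was not tested. In excitatory neurons 6 of 14 rose and 4 fell, against backgrounds of 24% and 20.8%. In inhibitory neurons 6 of 14 rose and 2 fell, against 19.2% and 17.4%. After correction the counts were 6 and 3 in excitatory neurons, and 5 and 0 in inhibitory neurons. In oligodendrocytes 9 of 12 rose and 2 fell (median 1.13), and 9 rose and 1 fell after correction (median 1.01). Sgk1, a kinase induced by glucocorticoids, was at 64.2, 65.3 and 83.4 CPM in CGF, 215, 254 and 211 CPM in GF and 56.9 to 94.4 CPM in SPF (1.68 ± 0.17, adjusted p = 5.2e-06). Ddit4, which restrains mTOR, was at 7.49, 7.44 and 13.9 CPM and 43.7, 48.6 and 42.5 CPM (2.27 ± 0.25, adjusted p = 8.9e-06), and Errfi1 and Per1 rose by 1.15 and 1.39. In astrocytes 6 of 12 rose and 2 fell, and 6 and 0 after correction. Zbtb16 was at 45.0, 110 and 89.3 CPM in astrocytes of CGF and 224, 326 and 254 CPM in those of GF mice (1.71 ± 0.22, adjusted p = 2.4e-05), and Tsc22d3, which encodes the glucocorticoid-induced leucine zipper, at 29.5, 63.5 and 44.6 CPM and 110, 103 and 104 CPM (1.19 ± 0.21, adjusted p = 0.00038). In OPC 5 of 10 rose and 1 fell, and 4 and 1 after correction. Of the 2 receptor genes on the list, Nr3c1, the glucocorticoid receptor, fell in excitatory neurons from 117, 104 and 105 CPM to 66.3, 59.9 and 70.3 CPM (−0.73 ± 0.08, adjusted p = 0.00012), and Nr3c2, the mineralocorticoid receptor, fell in astrocytes by 0.92 ± 0.13 (adjusted p = 3.7e-05) and did not pass after correction (adjusted p = 0.084).

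Fkbp5, the co-chaperone that glucocorticoids induce and that dampens their receptor, had its highest levels and largest fold change in microglia. There it was at 156, 194 and 169 CPM in CGF, 1085, 1009 and 840 CPM in GF and 162 to 275 CPM in SPF (2.50 ± 0.21, adjusted p = 1.4e-05). Its span is 118 kb and the value after correction was 2.80 (adjusted p = 4.1e-08). In OPC it was at 54.6, 68.6 and 54.5 CPM in CGF and 155, 91.6 and 95.5 CPM in GF (0.95 ± 0.20, adjusted p = 0.0018). Chosen after its values were seen, the level in the other classes was as follows. In astrocytes it rose by 1.197 ± 0.29 (adjusted p = 0.0041, and 0.78 with adjusted p = 0.047 without GF 6) and in oligodendrocytes by 1.29 ± 0.23 (adjusted p = 0.00048). In excitatory neurons it was at 50.5, 73.7 and 80.7 CPM in CGF and 82.9, 84.0 and 79.2 CPM in GF, and did not pass (0.27 ± 0.14, adjusted p = 0.15), but it did after correction (0.54, adjusted p = 0.017) and without CGF 19 (0.40, adjusted p = 0.039). Without CGF 17 the value was 0.087 (adjusted p = 0.40), and with the stricter gate 0.14 (adjusted p = 0.50). In inhibitory neurons its value was −0.06 ± 0.14 (adjusted p = 0.77). No test of the difference between neurons and microglia was made. Of the 11 genes of the glucocorticoid list tested in microglia, Fkbp5 included, 2 were higher and 2 lower. The other higher gene was Sult1a1, at 7.22, 2.46 and 10.4 CPM and 36.7, 48.2 and 29.4 CPM (2.45 ± 0.47, adjusted p = 0.0029), which did not pass after correction.

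Myelin genes were at higher CPM in oligodendrocytes of GF mice. Of 15 myelin genes 10 rose and none fell (median 0.60), and 8 and 0 did so after correction (median 0.38). Mobp, a structural protein of compact myelin with a span of 31.8 kb, was at 600, 596 and 574 CPM in CGF, 1335, 1267 and 1119 CPM in GF and 726 to 831 CPM in SPF (1.07 ± 0.11, adjusted p = 7.5e-06). Mobp is also among the marker genes by which oligodendrocytes were gated, so its level in this class is not independent of the gate. The part of the gate in this rise was not tested. Mal and the tight junction gene Cldn11 rose by 1.10 and 0.85, and the gap junction gene Gjb1 by 1.65. The largest rises were in Fcrla, Pdk4, which turns pyruvate away from the citric acid cycle, and the small heat shock protein Cryab. Pdk4 was at 7.49, 6.62 and 7.58 CPM in CGF and 49.1, 45.4 and 47.3 CPM in GF (2.71 ± 0.23, adjusted p = 3.4e-06), and Cryab at 55.1, 34.3 and 46.1 CPM and 184, 290 and 204 CPM (2.34 ± 0.21, adjusted p = 3.9e-06). The largest falls were in Upp2, Cmss1 and Galntl6, at −1.96, −1.85 and −1.81. Of 18 heat shock genes 14 rose and none fell, and 10 and 0 after correction. The 5 summed oligodendrocyte markers, which share members with the myelin list, were at 6349 to 7038 unscaled CPM in GF and 4557 to 4948 in CGF.

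In OPC the largest falls were in Lama2, at 52.1, 48.2 and 41.8 CPM in CGF and 1.60, 11.2 and 7.07 CPM in GF (−2.86 ± 0.43, adjusted p = 7.5e-05), Upp2 and the dynein gene Dnah9. For Lama2 the SPF libraries, at 5.22 to 19.9 CPM, overlapped GF. The largest rises were in Ssna1, Tceal5 and Ssr2, of the protein translocation machinery, at 2.53, 2.45 and 2.32, of which Ssna1 did not pass after correction (adjusted p = 0.059). In microglia 14 of 21 complement and homeostatic genes rose and 1 fell (median 1.10), and 8 and 1 did so after correction (median 0.48). Before the correction this list also had 7 of 21 higher and 3 lower in excitatory neurons, and 8 of 17 and 1 in inhibitory neurons. In astrocytes 4 of 8 rose, in oligodendrocytes 6 of 13 and in OPC 2 of 5, and none fell. C1qa, a chain of the first complement component, was at 72.2, 61.4 and 114 CPM in CGF and 484, 590 and 481 CPM in GF (2.65 ± 0.25, adjusted p = 4.8e-05), and Trem2, a lipid-sensing receptor, at 60.2, 29.5 and 41.6 CPM and 144, 166 and 154 CPM (1.81 ± 0.24, adjusted p = 0.00033). Ucp2, an uncoupling protein of mitochondria, and Ndufb8 were the other large rises. Of the largest falls, Cd300lf, an inhibitory receptor, was at 135, 86.0 and 39.0 CPM in CGF, 12.2, 9.03 and 2.26 CPM in GF and 95.1 to 151 CPM in SPF (−3.47 ± 0.54, adjusted p = 0.00083), and Tox and Vwc2l fell by 2.66 and 3.63. The spread of Vwc2l within CGF, 21.7, 120 and 23.4 CPM, was wide, and without CGF 18 it did not pass (−2.35, adjusted p = 0.059). The number of genes that passed in microglia was 948, 921 and 955 without CGF 17, CGF 18 and GF 6. Entpd1, an ectonucleotidase of microglia, was at 453, 440 and 507 CPM in CGF and 540, 581 and 642 CPM in GF, apart but short of the threshold (0.33 ± 0.17, adjusted p = 0.18), and it passed after correction (0.70, adjusted p = 0.026).

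A list of 10 genes that the study discusses for depression, which was chosen on libraries of this series and is not independent evidence of its direction, had 9 lower and none higher in excitatory neurons (median −0.44), with a median span of 601 kb. After correction 1 was lower and 1 higher (median 0.03). In microglia 8 were lower and 2 higher, and after correction none was lower and 2 were higher, one of them Fkbp5. Adora1, the adenosine A1 receptor, was at 45.6, 41.1 and 43.5 CPM in excitatory neurons of CGF and 42.9, 47.2 and 46.3 CPM in those of GF mice (0.07 ± 0.07, adjusted p = 0.50), and in inhibitory neurons it fell from 20.4, 21.6 and 23.8 CPM to 15.0, 11.7 and 12.0 CPM (−0.77 ± 0.18, adjusted p = 0.0066).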

How the data were processed

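Single nuclei of the Hip were sequenced with a 10x Genomics 3′ assay, 1 library per mouse. The authors aligned reads to the mouse genome mm10 (Ensembl 92) and deposited unnormalized counts, UMIs per gene and barcode for the barcodes called as cells. The matrix headers name Cell Ranger 3.1.0, while the labels and the study's texts disagree on the kit and software version. Whether intronic reads were counted, and how doublets were treated, is not given in the sources used here. Libraries were grouped by the labels. Nuclei with at least 200 genes and at most 10% mitochondrial UMIs were kept, and likely doublets (0.8% per 1000 nuclei, by neighbours of simulated pairs) were taken out in one of the alternatives and stayed in otherwise.

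The UMIs of each class were added up within a library and fitted with edgeR 4.0.16 (filterByExpr, TMM, quasi-likelihood test) in R 4.3.3 over the 9 Hip libraries, GF, CGF and SPF, which share one estimate of the spread. The difference between GF and CGF was tested with Benjamini-Hochberg adjustment at 0.05. Between-class tests used the class sums of the 6 GF and CGF libraries with the mouse as a block. Shares of nuclei were compared by an exact two-sided permutation test (scipy 1.17.1), and Wilson intervals cover counting error only. Genomic span, transcript length and GC content came from the GENCODE annotation of mm10, matched for 30766 of 30905 genes. The scripts were tested on simulated counts. Named genes were the 6 largest rises and 6 largest falls over all nuclei and in each neuronal class, the 3 and 3 in each glial class (past the threshold, groups apart, mean of at least 20 CPM, with a gene name), the 4 smallest p of each list and of each between-class test, the gate genes and genes the study names. Not every gene that this rule selects is given with its values, and the rest are counted with their list or class. One gene is not reported here. The members, the 41 gene lists and the rules were chosen with earlier results of these data known. Alternatives included DESeq2 1.42.0, other scaling, no filter on low counts, the 6 libraries alone, thinned sums, other limits and gates, and leaving out each library.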

Additional observations from a re-analysis of the deposited data

Results flagged for a closer look

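These genes had a difference between GF and CGF that itself differed between 2 cell classes of the same mice, by the test of the class by group term. The differences come from the joint fit of 2 classes, which has its own scaling. They need not equal those between the log2 fold changes of the single classes given beside them. Between excitatory and inhibitory neurons the difference of the log2 fold changes was −1.99 for Slc32a1, 1.02 for Nptx1, −1.24 for Sst and −1.05 for Metap1d. Nptx1 had a log2 fold change of 0.75 in excitatory neurons and −0.34 in inhibitory neurons, and the first was 0.29 (adjusted p = 0.20 by edgeR) in the span-corrected fit, and Metap1d −0.93 and 0.06. Between excitatory neurons and astrocytes the difference was −2.16 for Gpr37l1, −2.05 for Mfge8, 1.76 for Nptx1 and 1.63 for Scg2. Gpr37l1, a prosaposin receptor of astrocytes, had a log2 fold change of 1.82 in astrocytes and −0.54 in excitatory neurons. Scg2 had 2.11 in excitatory neurons and 0.68 in astrocytes, where its call ended without CGF 17, CGF 18, GF 5 or GF 7 (0.50 to 0.67, adjusted p of 0.059 to 0.11 by edgeR) and in the span-corrected fit (0.080, adjusted p = 0.82). The markers of one class that were carried by the gated nuclei of another, as listed above, moved with the groups, and their part in these differences was not tested.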

How the results depend on the processing

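The number of genes past the threshold in each class stayed within 1.5 times the reported count under the alternatives run, except where values follow. Against a 1.2-fold change (glmTreat) 5717 genes passed over all nuclei, 4967 in excitatory neurons, 3463 in inhibitory neurons and 1621 in OPC. With DESeq2 1515 passed in OPC and 961 in microglia. With a trend on length and GC content removed astrocytes had 2138, OPC 1327 and microglia 714, and with genomic span added, an alternative chosen after seeing the data, inhibitory neurons had 2366, astrocytes 1526, oligodendrocytes 2337, OPC 698 and microglia 434. Without 1 library the count in microglia was 921 to 1453. The cause was not tested.

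No paired analysis was possible because GF and CGF mice are different animals and share no replicate numbers. The mouse was a block only between the classes of a library. Without the replicate block 0 genes differed between excitatory and inhibitory neurons (781 at an unadjusted p under 0.05 by edgeR) and 288 between excitatory neurons and astrocytes. With DESeq2's size factors 5 and 470 did, and with no filter on low counts 261 and 860. Without 1 library the counts were 0 to 58 and 394 to 1087.

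Differences in the share of nuclei kept their sign except for microglia, at −0.184 to 0.016 percentage points without 1 library. Of 137 named values past the threshold, those that turned were Cdh9, Cdh12 and Sst in excitatory neurons, at 0.022, 0.19 and −0.81 with the trend on span removed, and Sst at −0.19 with that on length and GC content. Among values that had not passed, Slc32a1 in excitatory neurons was at −0.35 and −0.70 in those fits, −0.075 with at most 1% mitochondrial UMIs, −0.13 in nuclei with at least 2 Prox1 UMIs and −0.15 to 0.36 without 1 library. In the nuclei with Prox1, Adora1 and Slc16a1 were at −0.057 and −0.13. In inhibitory neurons Gad2 was at −0.0035 with DESeq2, −0.0034 with its size factors, −0.033 with the stricter gate and −0.043 to 0.076 without 1 library, Fkbp5 at 0.25 with the span trend removed and −0.20 to 0.11 without 1 library, Metap1d at −0.010 with the stricter gate and −0.081 to 0.21, and Nptx1 at −0.59 to 0.059 without 1 library. By the exact permutation test of 3 against 3 libraries a share cannot pass 0.05. OPC and microglia held the fewest UMIs, 520344 to 1016826 and 339895 to 464242 per GF or CGF library.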
